A study of Sus scrofa with 12 samples.

Results

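ACTN2, PDLIM5 and MYO18B are 3 muscle genes whose RNAs were found far along their own chromosomes and rarely on any other chromosome. They are 3 of the 1122 chromatin-associated RNAs (caRNAs) listed in at least 1 of 4 GRID-seq libraries of pig longissimus muscle, and all 3 were listed in each library. GRID-seq joins an RNA to the DNA it touches in the fixed nucleus through a linker, so that each RNA is given a signal on 1-kb bins of the genome. H3K27ac BL-HiChIP, which joins DNA ends that lie close together and enriches them with an antibody against a mark of active promoters and enhancers, gave the chromatin loops of the same genes. The muscle came from male piglets at 2 weeks of age of the lean commercial Large White (LW) breed and the Chinese local Meishan (MS) breed, with no treatment. Each assay had 2 libraries per breed, and the sources used here leave it unclear whether the replicates of a breed came from different piglets, so the p-values below measure the spread between libraries, which may be technical. The genes were chosen by where the bins of their RNAs lay and how far these ran on the own chromosome in these same libraries, so the shares and distances in each library are descriptions and carry no test.

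All 3 genes code for proteins of the sarcomere, the contractile unit of striated muscle, whose ends are anchored in the Z-disc. ACTN2 codes for alpha-actinin-2, which crosslinks actin filaments in the Z-disc. PDLIM5 codes for a PDZ and LIM domain protein, also called ENH, that binds alpha-actinin there. MYO18B codes for an unconventional myosin of striated muscle that is needed for sarcomeres to form. RNA on chromatin is often nascent, and it is then found mainly at the gene that is being transcribed.

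On Sscrofa11.1, and at the positions in the caRNA lists, ACTN2 lies on the minus strand of chromosome 14 from 54666623 to 54742779, a length of 76.2 kb. PDLIM5 lies on the minus strand of chromosome 8 from 125044028 to 125259948, a length of 216 kb. MYO18B lies on the plus strand of chromosome 14 from 43451850 to 43687727, a length of 236 kb, and RefSeq starts this gene 16.0 kb further inside. The gap between MYO18B and ACTN2 is 11.0 Mb. No other caRNA was listed from within 1 Mb of any of the 3 genes.

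The reads of all listed caRNAs summed to 8181721 and 9943666 for LW and to 7172517 and 9381797 for MS, and the loop lists held 57028 and 43282 loops in LW and 45061 and 33353 in MS. Of 12 markers of the skeletal muscle fibre, 7 were listed in each LW library and 6 in each MS library, while ACTA1, RYR1, MYH1, MYH2 and MYH4 were not listed by their symbols. Markers of endothelial, immune, satellite, smooth muscle and cardiac muscle cells were listed in 0 of 4 libraries. Fibroblast collagen genes were listed at 2 or 3 of 6 markers in each library, and the adipocyte marker LPL was listed in MS replicate 2. The part of these cells in the results was not tested.

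The ACTN2 RNA had 46624 and 51598 reads in LW and 46649 and 54947 in MS. Scaled to the reads of all listed caRNAs (RPM) this was 5699 and 5189 RPM in LW against 6504 and 5857 RPM in MS, so that both MS libraries were above both LW libraries. PDLIM5 had 34510 and 38243 reads in LW and 22999 and 27576 in MS, or 4218 and 3846 RPM in LW against 3207 and 2939 in MS. MYO18B had 73079 and 81177 reads in LW and 51868 and 61289 in MS, or 8932 and 8164 RPM in LW against 7231 and 6533 in MS. For PDLIM5 and MYO18B the LW libraries were thus the higher ones. In edgeR's quasi-likelihood test over the 308 caRNAs listed in all 4 libraries, the log2 fold change of LW over MS was 0.36 for PDLIM5 (standard error 0.0080, Benjamini-Hochberg adjusted p = 5.35e-06) and 0.28 for MYO18B (standard error 0.0067, adjusted p = 6.69e-06 by edgeR). It was -0.21 for ACTN2 (standard error 0.0074, adjusted p = 2.09e-05 by edgeR). The same test called 86.7% of the 308 caRNAs, 136 higher in LW and 131 higher in MS, so a call in this comparison is the usual outcome and sets none of the 3 genes apart. Without TMM scaling the median of all caRNAs shifted to 0.13, and ACTN2 was at -0.09. In bulk muscle, fewer cells of a type and less RNA per cell cannot be told apart.

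The signal of each RNA was divided by distance from the nearest end of its gene. Of the ACTN2 signal, 43.3% and 50.5% lay beyond 10 kb on chromosome 14 in LW against 42.6% and 51.1% in MS. The breeds overlapped here, and the replicates of a breed were further apart than the breeds. For PDLIM5 the shares were 42.3% and 45.0% in LW against 20.4% and 24.6% in MS. Both LW values were well above both MS values, by more than the replicates of either breed differed. For MYO18B the shares were 62.7% and 66.9% in LW compared with 52.3% and 57.5% in MS, again without overlap. Both LW libraries were above both MS libraries for 43.5% of the 308 caRNAs listed in all 4 libraries, and the reverse held for 10.1%. The median over all listed caRNAs was 8.25% and 14.3% in the LW libraries compared with 6.60% and 10.6% in the MS libraries, below each of the 3 RNAs in every library. Among the listed caRNAs MYO18B ranked at 10 and 6 by this share in LW and at 12 and 9 in MS. ACTN2 ranked between 23 and 68 and PDLIM5 between 72 and 172, so that MYO18B had the highest share of the 3 in every library. Signal on other chromosomes was at most 1.44% of the total for any of them in any library.

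**Figure D1:**
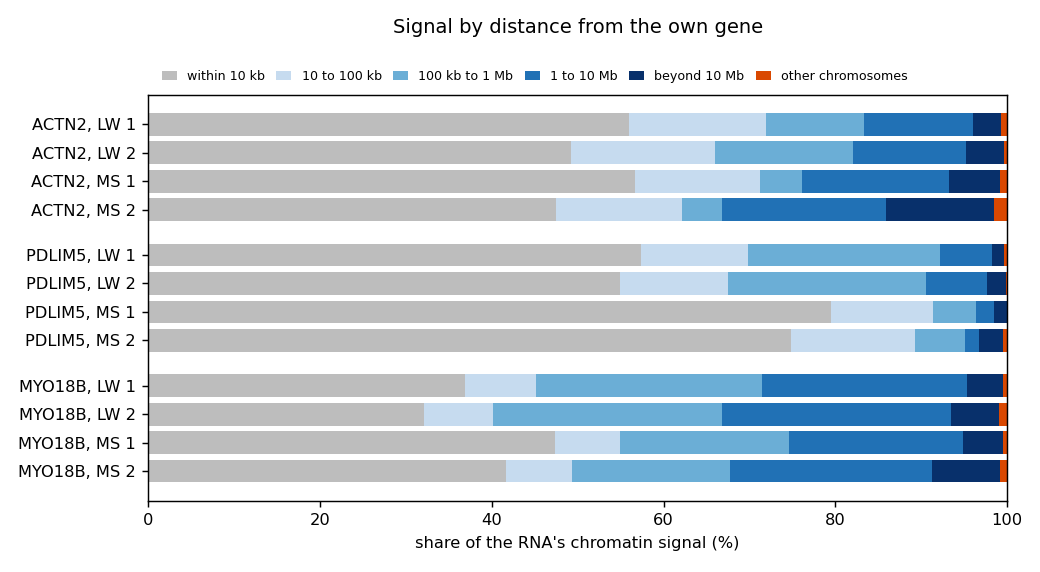
Share of each RNA's chromatin signal (x axis, %) by distance from its own gene, with 1 bar for each RNA and library and 1 colour for each of 6 distance classes. The PDLIM5 bars of MS are at 79.6% and 74.9% within 10 kb, against 57.3% and 54.9% in LW, and the orange part for other chromosomes is close to invisible throughout.

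The class between 100 kb and 1 Mb separated the breeds for all 3 RNAs. In this class lay 11.4% and 16.1% of the ACTN2 signal in LW against 4.87% and 4.72% in MS. For PDLIM5 it was 22.4% and 23.1% in LW against 4.97% and 5.87% in MS. For MYO18B it was 26.3% and 26.7% in LW compared with 19.7% and 18.4% in MS. Such a split, with both LW libraries above both MS libraries, was found for 30.8% of the 308 caRNAs and the opposite split for 5.19%, so it is common in these libraries, although the 3 RNAs lie far above the median share of this class, which was 0.646% or less in each library. ACTN2 went the other way from PDLIM5 and MYO18B between 1 and 10 Mb. Its share between 1 and 10 Mb was 12.7% and 13.1% in LW against 17.1% and 19.01% in MS, and beyond 10 Mb it was 3.17% and 4.46% in LW compared with 6.03% and 12.7% in MS. Both MS libraries were thus above both LW libraries for ACTN2, a direction found for 4.55% and 6.17% of the 308 caRNAs in these classes. The lowest peak of a listed ACTN2 run was 6.04 and 6.01 in LW against 4.67 and 4.82 in MS, so weaker ACTN2 runs were listed in MS. The lowest peak was higher in both LW libraries for 24.0% of the 308 caRNAs and higher in both MS libraries for 28.2%. PDLIM5 had 6.13% and 7.02% between 1 and 10 Mb in LW and 2.08% and 1.65% in MS, and MYO18B had 24.0% and 26.6% in LW compared with 20.3% and 23.5% in MS. Beyond 10 Mb PDLIM5 had 1.36% and 2.26% in LW and 1.53% and 2.72% in MS. MYO18B had 4.12% and 5.54% in LW and 4.68% and 7.91% in MS there, and the breeds overlapped for both RNAs.

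The summed signal beyond 10 kb on the own chromosome was compared between the breeds over the 308 caRNAs with limma on the log2(signal + 1) scale after quantile normalization, a scale that understates the change of low values. The members were chosen on these values, so their fold changes are descriptions and no p is given for them. The log2 fold change of LW over MS was 0.88 for PDLIM5 and -0.36 for ACTN2. MYO18B was at 0.00, which the normalization fixes, because this RNA held the same rank in every library. The fit called 0.974% of the caRNAs, 0.325% higher in LW and 0.649% higher in MS. Without quantile normalization all caRNAs shifted towards LW, with a median of 0.60, and PDLIM5 was at 1.57, MYO18B at 0.40 and ACTN2 at 0.17. PDLIM5 was thus above the median and ACTN2 below it on both scales.

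Around each gene the RNA formed 1 unbroken run of adjacent bins that covered the gene and went on to both sides of it. The deposited signal rises and falls smoothly over at least 22 adjacent bins, so the bins of a run are not independent, and the run is the unit that is described. A run ends at the first bin that is not listed, even where listed bins go on beyond it. Outside the gene this run measured 371 and 379 kb for ACTN2 in LW and 295 and 316 kb in MS. For PDLIM5 it was 687 and 781 kb in LW against 121 and 142 kb in MS, the widest gap of the 3 as a ratio. For MYO18B it was 1121 and 1304 kb in LW compared with 523 and 589 kb in MS. The median over all listed caRNAs was 39.9 and 48.4 kb in LW against 37.2 and 44.8 kb in MS, so that each of the 3 was well above the median in every library.

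**Figure D2:**
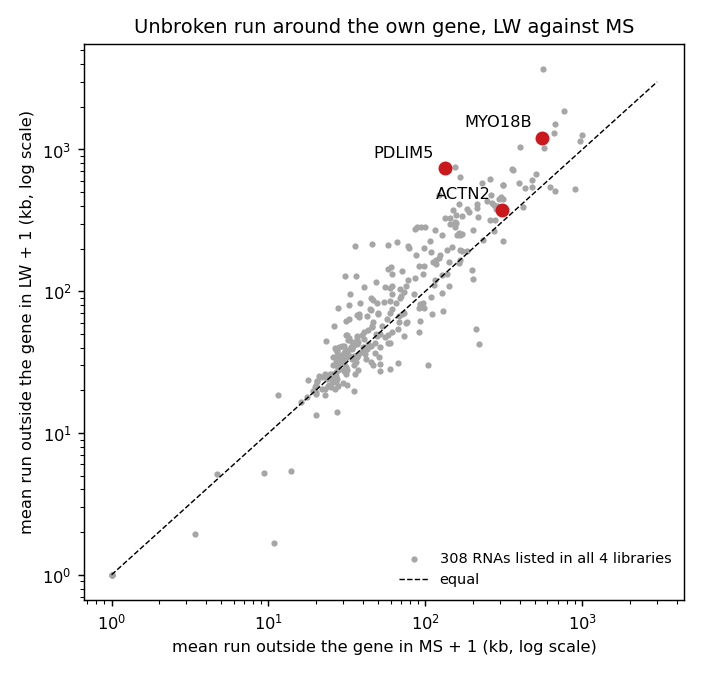
Mean length of the unbroken run outside the gene in the MS libraries (x axis, kb, log scale, 1 kb added) against the LW libraries (y axis) for the 308 caRNAs listed in all 4 libraries, with the 3 RNAs in red and equal lengths on the dashed line. PDLIM5, at 734 kb in LW and 132 kb in MS, lies far above the line, while ACTN2, at 375 and 305 kb, lies close to it.

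All 3 RNAs had longer runs in both LW libraries than in both MS libraries, as did 42.5% of the 308 caRNAs, while 9.09% showed the reverse. The lengths were also put on the log2(kb + 1) scale without normalization, a comparison added after these values were seen, and since the members were chosen on these lengths no p is given for them. The log2 fold change of LW over MS was 2.47 for PDLIM5, 1.12 for MYO18B and 0.30 for ACTN2, against a median of 0.24 over all 308 caRNAs. Leaving out any one library kept PDLIM5 between 2.36 and 2.59. A limma fit to these lengths called 5.19% of the caRNAs, 4.22% with a longer run in LW and 0.974% with a longer run in MS. After quantile normalization PDLIM5 was at 1.84, MYO18B at 0.38 and ACTN2 at -0.45, so the direction for ACTN2 depends on the scaling.

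For PDLIM5 the difference lay mostly beyond the 3′ end of the gene. There the run reached 485 and 538 kb in LW compared with 17.03 and 33.0 kb in MS. Beyond the 5′ end it reached 202 and 243 kb in LW against 104 and 109 kb in MS, so both sides were longer in LW, the 3′ side by far the more. A longer run in both LW libraries was found for 38.3% of the 308 caRNAs on the side of lower coordinates and for the same share on the other side. On the 5′ side PDLIM5 RNA covered all 32 bins of HPGDS, a prostaglandin D synthase gene, in both LW libraries and MS replicate 2 and none in MS replicate 1. The next gene beyond the 3′ end is BMPR1B, which codes for a receptor of bone morphogenetic proteins and lies from 124536648 to 125035841, 8.19 kb away from PDLIM5. PDLIM5 RNA was listed on 497 and 500 of the 500 bins of BMPR1B in LW and on 224 and 190 of them in MS. Its mean signal over BMPR1B was 26.2 and 29.6 per bin in LW and 6.72 and 6.08 in MS. In MS the RNA was therefore listed over part of the same gene, in separate runs. The LW signal stopped near the far end of BMPR1B, and on UNC5C, the gene after it, 12 and 28 of 385 bins were listed in LW and 0 in both MS libraries.

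PDLIM5 had fewer reads in MS, and the lowest signal at which one of its runs was listed was higher there. The lowest peak of any listed PDLIM5 run was 9.03 and 9.43 in LW compared with 11.9 and 10.5 in MS. The LW level between 100 and 200 kb beyond the 3′ end was 25.7 and 31.5 per bin, and between 300 and 400 kb it was 30.3 and 28.0. In MS these levels were 4.49 and 6.93 between 100 and 200 kb and 10.8 and 5.47 between 300 and 400 kb. The part of the reads in this difference was not tested.

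**Figure D3:**
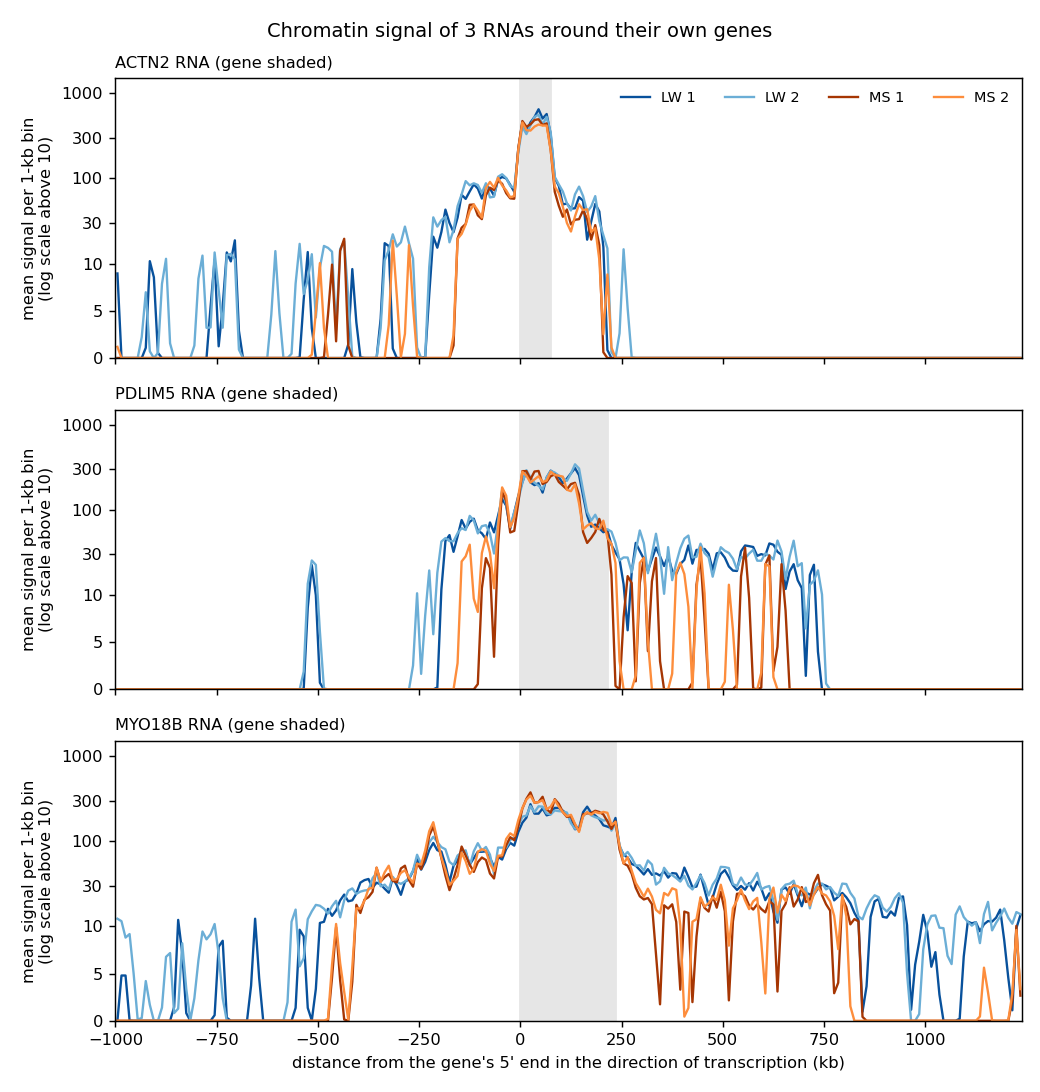
Mean signal per 1-kb bin in steps of 10 kb (y axis, log scale above 10) against distance from the 5′ end of the gene in the direction of transcription (x axis, kb), with 1 line for each library and the gene shaded. PDLIM5 in LW has means of 25.7 to 31.5 between 100 and 400 kb beyond its 3′ end while the MS lines return to 0 between separate peaks, and MYO18B in MS is below LW between 100 and 200 kb beyond its 3′ end.

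MYO18B showed a similar asymmetry on a higher base. Beyond its 3′ end the run reached 610 and 724 kb in LW against 105 and 167 kb in MS, while beyond the 5′ end it reached 511 and 580 kb in LW compared with 418 and 422 kb in MS. In MS, listed bins went on beyond the 3′ break of the run. They made up 96.0% and 88.0% of the bins between 100 and 200 kb and 100% in each step from 200 to 500 kb. Up to 500 kb the 3′ difference in run length thus rests on gaps in an RNA that was listed further out in both breeds. Beyond 500 kb, which both LW runs passed, the listing itself was thinner in MS. Between 500 and 700 kb, 98.5% and 100% of the bins were listed in LW against 53% and 42% in MS. The first genes on the 3′ side are SEZ6L and ASPHD2, and MYO18B RNA covered all 200 bins of SEZ6L in both LW libraries and 200 and 188 of them in MS. Its mean signal on SEZ6L was 34.7 and 36.9 in LW against 15.1 and 18.0 in MS, below the LW libraries by more than the replicates differed. On the 5′ side the RNA covered all 141 bins of GRK3, a G protein-coupled receptor kinase gene, in every library. There the mean signal was 72.8 and 81.4 in LW compared with 68.8 and 76.2 in MS, and the breeds overlapped. Between 400 and 500 kb beyond the 3′ end the levels were again near each other, at 24.7 and 26.7 in LW against 22.8 and 24.8 in MS. Between 100 and 200 kb they were further apart, at 38.9 and 36.0 in LW compared with 10.4 and 15.2 in MS. The lowest listed run peaks of MYO18B were 4.19 and 3.39 in LW against 4.84 and 2.85 in MS, which overlap.

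The ACTN2 run differed least between the breeds. It reached 232 and 231 kb beyond the 5′ end in LW and 167 and 166 kb in MS, and 139 and 148 kb beyond the 3′ end in LW and 128 and 150 kb in MS. The breeds were apart on the 5′ side and overlapped on the 3′ side. The RNA covered all bins of MTR, the methionine synthase gene, and of HEATR1, a gene of ribosome production, in every library. Its mean signal on HEATR1 was 76.0 and 81.7 in LW compared with 48.8 and 52.3 in MS, and on MTR it was 48.3 and 58.8 in LW against 33.5 and 37.2 in MS, both higher in LW. No bin of RYR2, which lies 260 kb beyond the 3′ end, was listed for ACTN2 RNA in any library. On that side the RNA was thus missing over RYR2, although it was listed again much further out.

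**Figure D4:**
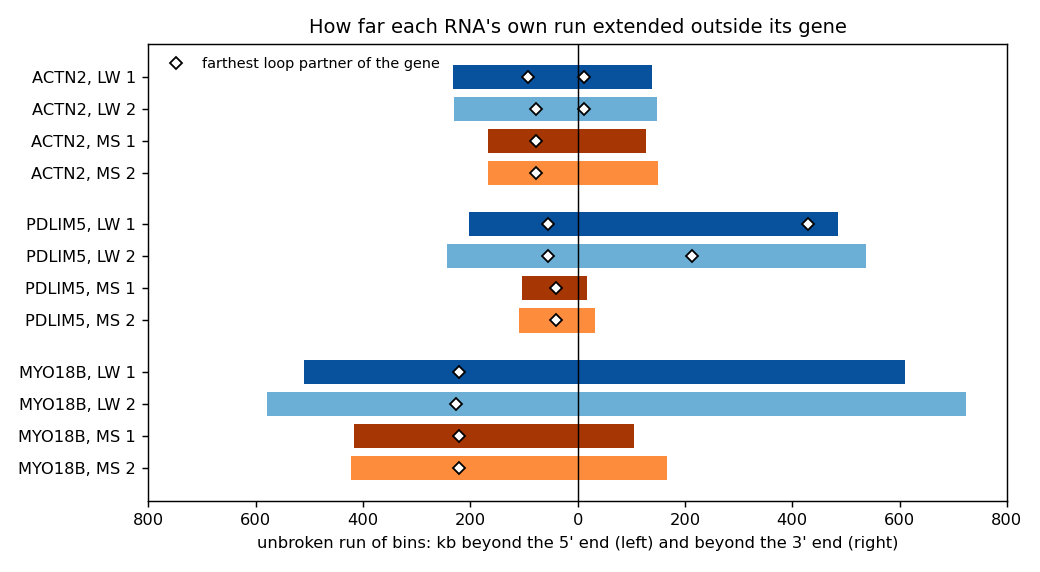
Length of the unbroken run (x axis, kb) beyond the 5′ end (left) and the 3′ end (right) of each gene, with 1 bar for each RNA and library and diamonds at the farthest H3K27ac loop partner of the gene in that library. The 3′ bars of PDLIM5 are 485 and 538 kb in LW compared with 17.03 and 33.0 kb in MS, and loop partners on that side appear in LW alone.

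Within the genes the signal followed different courses. In ACTN2 the mean per bin was 493 and 454 in LW against 434 and 395 in MS, and its last 10% at the 3′ end was at 415 and 430 in LW compared with 268 and 267 in MS. In PDLIM5 the last 10% held 57.2 and 60.3 in LW against 63.6 and 65.1 in MS, far below the mean of the whole gene, which was 189 and 200 in LW compared with 176 and 174 in MS. The PDLIM5 signal was thus already low before the 3′ end in both breeds, and slightly higher in MS, while beyond that end the LW libraries were the higher ones. In MYO18B the highest bin lay 25.7 and 23.7 kb from the 5′ end in LW and 23.7 kb in both MS libraries. Its height was 288 and 276 in LW against 402 and 370 in MS, so that MS was higher near the start of the gene.

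Beyond the own run, each RNA appeared in separate runs on its chromosome. ACTN2 had 50 and 70 of them in LW and 59 and 107 in MS. PDLIM5 had 29 and 41 in LW and 16 in each MS library, and MYO18B had 160 and 199 in LW compared with 103 and 158 in MS. Both LW libraries had more separate runs than both MS libraries for PDLIM5 and MYO18B, as for 20.8% of the 308 caRNAs. The longest separate run of ACTN2 had 164 and 239 bins in LW against 513 and 473 in MS, and in MS it was longer than the run around the gene. For MYO18B the longest had 561 and 848 bins in LW against 476 and 405 in MS, while for PDLIM5 none was over 54 bins. The farthest bin lay 85.6 to 86.0 Mb away for ACTN2, 41.8 to 53.9 Mb for PDLIM5 and 96.7 to 97.6 Mb for MYO18B. These distances differed little between breeds, but they rest on the single farthest run of each library. The distance that held 90% of the signal on the own chromosome was 1679 and 1938 kb for ACTN2 in LW, 3213 kb in MS replicate 1 and 19430 kb in MS replicate 2. For PDLIM5 it was 427 and 514 kb in LW against 81.1 and 118 kb in MS.

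**Figure D5:**
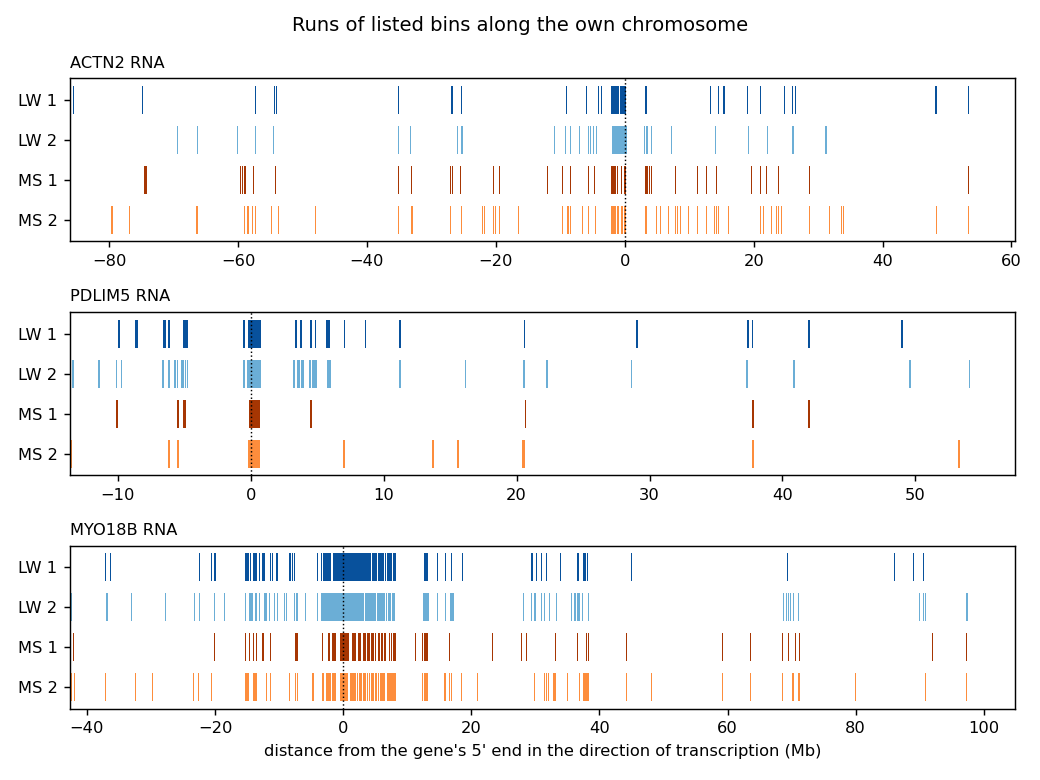
Runs of listed bins of each RNA along its own chromosome (x axis, Mb from the 5′ end in the direction of transcription), with 1 row for each library. Runs are drawn at least 0.12 Mb wide to be visible, MYO18B has the densest set and PDLIM5 in MS has 16 separate runs in each library.

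Few of the distant bins recurred in every library. Of the bins beyond 1 Mb listed in any library, 491 of 6390 were listed in all 4 for ACTN2, 1381 of 14686 for MYO18B and 0 of 2098 for PDLIM5. Between 10 kb and 1 Mb agreement was much higher. There, all 736 PDLIM5 bins of LW replicate 1 were also in LW replicate 2, and all 316 and 332 bins of the MS libraries were in both LW libraries, so the PDLIM5 territory of MS lay inside that of LW. Between the MS replicates themselves, 186 of these bins were shared.

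The bins of ACTN2 RNA that recurred in all 4 libraries fell into 3 places. Most of them, 448, lay between 56141001 and 56675000 on chromosome 14, which is 1.40 Mb from ACTN2 and holds IRF2BP2 and TARBP1. This region held 13.9% and 11.8% of the ACTN2 signal beyond 10 kb on the chromosome in LW and 26.7% and 22.2% in MS, more in both MS libraries. Other RNAs were also listed there, 8 and 14 of them in LW and 14 and 16 in MS. The remaining places were at ARVCF and at C14H10orf71, with 20 and 23 bins. For MYO18B there were 17 such places. The largest lay between 44688001 and 45415000, 1.00 Mb beyond the 3′ end, with MN1, PITPNB and TTC28. It held 10.2% and 9.08% of the MYO18B signal beyond 10 kb on the chromosome in LW and 14.4% and 13.4% in MS.

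ACTN2 and MYO18B lie on the same chromosome, and each RNA was looked for on the other's gene after the data were seen. ACTN2 RNA was listed on 0 of 237 bins of MYO18B in both LW libraries and on 32 and 29 in MS. MYO18B RNA was listed on 0 of 77 bins of ACTN2 in both LW libraries and on 50 and 44 in MS. The bins listed for both RNAs were 11.7% and 15.8% of the ACTN2 bins in LW and 34.5% and 35.4% in MS. As shares of the MYO18B bins they were 3.23% and 4.49% in LW compared with 16.1% and 19.4% in MS. Contacts between these genes were thus listed in MS and not in LW. The signal in MS summed to 186 and 174 for ACTN2 RNA on MYO18B and to 188 and 196 for MYO18B RNA on ACTN2. No test was made of this pattern, and how often other pairs of caRNAs show such a split was not counted. The lowest listed run peaks, given above, were lower in MS for ACTN2 and overlapped between the breeds for MYO18B. Their part in this pattern was not tested.

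H3K27ac loops were counted where an anchor lay inside a gene or within 1 kb of its ends. ACTN2 had 22 and 18 loops in LW and 16 and 15 in MS. PDLIM5 had 36 and 36 in LW against 26 and 22 in MS, and MYO18B had 12 and 13 in LW compared with 14 and 11 in MS. Both LW libraries were above both MS libraries for ACTN2 and PDLIM5, a split found for 17.4% of the 16624 genes with a loop, with the reverse for 3.9%, and the breeds overlapped for MYO18B. At an FDR of at most 0.001 ACTN2 had 15 and 15 loops in LW against 15 and 12 in MS, and with loops at the gene ends alone PDLIM5 had 8 and 12 in LW against 10 and 11 in MS, so these splits depend on which loops are counted. The totals of loops per library, given above, overlapped between the breeds. Loops called in all 4 libraries numbered 6 for ACTN2, 9 for PDLIM5 and 0 for MYO18B. The interaction score of a gene, the sum of -log10 FDR over its loops, was 162 and 258 for ACTN2 in LW and 144 and 225 in MS. It was 282 and 322 for PDLIM5 in LW and 202 and 275 in MS, and 89.1 and 168 for MYO18B in LW against 94.2 and 145 in MS. The breeds overlapped for ACTN2 and MYO18B, and both LW libraries were above both MS libraries for PDLIM5, as for 25.2% of the genes, with the reverse for 6.67%.

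Over 16624 genes with a loop, limma on the quantile-normalized log2(score + 1) put PDLIM5 at 0.07 (standard error 0.64, adjusted p = 1.0), ACTN2 at -0.12 (standard error 0.66, adjusted p = 1.0) and MYO18B at -0.27 (standard error 0.69, adjusted p = 0.999). None passed the threshold, and limma called 0% of all genes at an adjusted p under 0.05, with 609 higher in LW and 437 higher in MS at an unadjusted p under 0.05. DESeq2 on the rounded score made 1 adjusted call. An unadjusted limit of 0.05 with an absolute log2 fold change above 1.5, the threshold of the study, passed 6.29% of the genes and none of these 3. The sign changed with the choice of loops for PDLIM5, with the choice of loops or the gene position for MYO18B and without LW replicate 1 for ACTN2 and MYO18B, so no direction is given. Without quantile normalization all genes shifted towards LW, with a median of 0.44.

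The strongest loop of PDLIM5 joined an anchor at its 5′ end to one 45.0 kb away from it, between 125300001 and 125305000. Its -log10 FDR was 51.8 and 54.6 in LW against 58.7 and 122 in MS. Loops from PDLIM5 to partners beyond its 3′ end numbered 3 in each LW library and 0 in each MS library. The farthest of these partners lay 429 kb from the gene in LW replicate 1 and 214 kb in LW replicate 2, both inside BMPR1B and inside the unbroken run of PDLIM5 RNA of those libraries. A single one of these loops, with its partner from 124890001 to 124895000, was called in both LW libraries, at a -log10 FDR of 2.1 and 4.5. The partner from 125035001 to 125040000, which holds an end of BMPR1B, was joined to adjacent PDLIM5 anchors in LW replicates 1 and 2, at 2.6 and 3.5. Counted in the same way, BMPR1B had 6 and 3 loops in LW and 0 and 1 in MS, and the LW counts include these loops to PDLIM5. MYO18B had no partner beyond its 3′ end in any library, although its RNA ran 610 and 724 kb there in LW. The farthest MYO18B partner on the 5′ side lay 222 to 227 kb away in every library.

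ACTN2 was joined to an anchor with an end of HEATR1 by loops in all 4 libraries. The loop of 80.0 kb from its 5′ end to this anchor had a -log10 FDR of 5.3 and 12.4 in LW compared with 8.0 and 16.6 in MS. A loop to an anchor with an end of MTR, beyond the 3′ end, was called in both LW libraries, at 2.7 and 4.7. MYO18B was joined to an end of GRK3 by a loop of 145 kb called in both MS libraries, at 3.6 and 2.7, and from the same GRK3 anchor by a loop of 160 kb in LW replicate 1, at 5.3. Counted in the same way, GRK3 had 16 and 7 loops in LW and 16 and 13 in MS, and these counts include its loops to MYO18B.

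The signal of each RNA on bins of its gene's loop partners was set beside other bins on the same side at a like distance. For MYO18B between 200 and 250 kb beyond the 5′ end, partner bins had a mean of 85.5 and 103 in LW, where other bins had 61.2 and 73.4. In MS partner bins had 124 and 137 and other bins 75.1 and 85.7. Partner bins were the higher ones in all 4 libraries at this distance. Between 100 and 150 kb they had 80.1 and 73.0 in LW, where other bins had 67.3 and 74.5, and 90.7 and 78.2 in MS, where other bins had 58.6 and 56.1, so LW replicate 2 had no excess there. For PDLIM5 between 10 and 50 kb beyond the 5′ end they had 108 and 120 in LW, where the others had 87.1 and 98.0, and 115 and 139 in MS, where the others had 91.4 and 106. For ACTN2 between 10 and 50 kb beyond the 5′ end the values were nearly alike, at 84.8 and 93.4 on partners against 91.1 and 93.1 on others in LW, and 70.6 and 73.1 against 66.5 and 68.1 in MS. Between 50 and 100 kb ACTN2 partner bins were higher, at 78.6 and 78.7 against 71.8 and 73.9 in LW and 84.7 and 95.4 against 57.7 and 64.1 in MS. On the 3′ side of PDLIM5 in LW, partner bins between 200 and 250 kb held 35.9 and 24.6 against 31.8 and 33.6 on the other bins. Between 400 and 450 kb they held 26.5 and 25.6 against 27.4 and 28.0. Nearer the gene they were higher in both LW libraries. Between 100 and 150 kb they held 31.1 and 43.1 against 27.4 and 29.6. Between 150 and 200 kb they held 28.2 and 38.8 against 23.6 and 32.6. The nearer partner bins on that side thus had an excess in both LW libraries, and the farther ones did not. Partner bins were between 1 and 25 in these steps and adjacent bins share their signal, so no test was made.

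By the split of the signal over the 6 distance classes, the caRNAs most like each gene were found among 254 named caRNAs listed in all 4 libraries. The measure was the summed absolute difference in percentage points, as a mean over the libraries. PDLIM5 was closest to MLIP at 12.05, followed by TENT2 at 13.9 and SRL at 14.7, against a median of 51.0 over the candidates. Of the MLIP signal, 44.1% and 44.6% lay beyond 10 kb on its chromosome in LW and 24.5% and 28.5% in MS, which is close to the PDLIM5 values. MYO18B was closest to ZBTB16 at 25.6, EYA4 at 30.5 and C1orf21 at 33.0, and ACTN2 to MYBPC1 at 28.9, ARPP21 at 33.1 and TMEM182 at 33.4. The median over the candidates was 105 for MYO18B and 74.7 for ACTN2. The members differed from each other by 38.3 for ACTN2 and PDLIM5, 44.6 for ACTN2 and MYO18B and 64.2 for PDLIM5 and MYO18B. This was more than each differed from its closest caRNAs, which were picked as the best of 254. The 2 differences of ACTN2 were below the medians of both genes compared, and 64.2 was below the median of MYO18B and above that of PDLIM5.

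Other genes of the Z-disc gave a background for these values. Of a list of 24 such genes, of which NEB is also among the fibre markers, 17 were listed in at least 1 library and 15 in all 4. The median share beyond 10 kb on the own chromosome over these 15 was 18.2% and 24.4% in LW against 13.3% and 16.4% in MS. This was below each of the 3 RNAs in every library, but the 3 were chosen by such values. The highest of the 15 was PDLIM3, at 56.5% and 66.3% in LW and 43.3% and 44.2% in MS. PDLIM3 was above PDLIM5 and below MYO18B in every library. In the test of reads edgeR called 9 of the 15 for LW and 6 for MS as the higher breed, beside the 86.7% of all caRNAs called. For the signal beyond 10 kb and for the run length, limma called 0 of the 15 in either direction. At an unadjusted p under 0.05 limma had 1 of the 15 with more signal in LW and 7 with a longer run in LW, and 0 in the other direction for either measure. Over all 308 caRNAs these shares were 9.74% for signal and 20.1% for run length towards LW, and 10.7% and 2.60% towards MS. Among those with the most reads were NEB, which codes for the thin filament protein nebulin, PALLD and LDB3. NEB had 16.2% and 18.2% of its signal beyond 10 kb in LW and 11.11% and 14.0% in MS. PALLD, an actin-binding scaffold gene, had 50.6% and 54.1% in LW against 40.8% and 42.7% in MS, and LDB3, a PDZ and LIM domain gene of the same family as PDLIM5, had 44.0% and 50.4% in LW compared with 32.9% and 38.9% in MS. The shares of PALLD and LDB3 thus lay above those of PDLIM5 and below those of MYO18B in every library. Compared with ACTN2, PALLD was higher and LDB3 close to it in LW, while both were lower in MS.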

How the data were processed

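The members and gene lists were chosen with earlier results of these data known. For BL-HiChIP the authors mapped reads to Sscrofa11.1 and called loops per library with FitHiChIP from peaks to all 5-kb bins, and the deposited value of a loop was read as an adjusted p-value (FDR). For GRID-seq the authors mapped both read ends with Bowtie2, kept chromatin-enriched RNAs and corrected for background. The authors deposited a whole number per RNA, read here as its count of RNA reads, and a background-corrected signal per 1-kb bin. The lists carry no column names, so these readings rest on the values. Per the labels the tools included Bowtie2 2.2.5 and SAMtools 1.9.

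Distances were taken from the nearest gene end in the lists. Repeated pairs of RNA and bin were summed, and 1 loop with an FDR of 0 in each replicate 2 library was set to the smallest FDR above 0. Reads were tested with edgeR 4.0.16 (TMM, quasi-likelihood), and signals, run lengths and loop scores with limma 3.58.1, in R 4.3.3, with a pseudocount of 1 and Benjamini-Hochberg adjusted p-values. DESeq2 1.42.0 was an alternative, and for the loop score it is the test the study names, although the score is not a count. A single value cannot reach an exact permutation p below 0.333 with 2 libraries per breed. The limits on depth are the 432 to 455 reads of the least abundant caRNA in each library, so an RNA or bin that is missing is not shown to be absent. Named genes are the 3 members, the 3 caRNAs most like each and genes with an end on a loop partner seen in both libraries of a breed. Z-disc genes with the most reads are also named. PDLIM3 and the neighbouring genes were added after their values were seen. Python 3.11.15, numpy 2.4.6, pandas 2.3.3 and matplotlib 3.10.9 did the rest. Sequences were not used here, and the values of 1 gene that the rule names are not reported here.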

Additional observations from a re-analysis of the deposited data

How the results depend on the processing

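Of 279 alternative values, 194 were taken as the same. For this a fold change had to keep its direction and its side of the threshold. A count of calls had to stay within 1.5 times the value reported. The mean of a description had to move by less than its standard deviation over the libraries. Loop sharing with 1 bin of tolerance was always taken as moved. For reads, treating missing caRNAs of those in at least 2 libraries as 0 gave 214 of 583 caRNAs higher in MS, against 131 of 308. The calls for signal beyond 10 kb were the least stable. Of 308 caRNAs, 1 was called higher in LW and 2 higher in MS in the fit reported above. With a limit of 50 kb the calls in LW and MS were 11 and 11. They were 4 and 7 with the number of bins and 2 and 4 with 1 signal floor. Other settings changed the number of caRNAs tested, with 57 and 67 called of 583 with missing caRNAs as 0, and 0 and 0 of 207 with at least 10 bins. A pseudocount of 0.1 gave 3 in LW, a limit of 5 kb gave 1 in MS and no quantile normalization gave 0 in MS. Run lengths gave 7 and 5 with quantile normalization. Without any 1 library, 0 caRNAs were called in either direction for signal or run length, and the lone library was assumed to vary like the others. DESeq2 called 1 gene higher in MS for the loop score. The causes were not tested.

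The replicate number as a block, a replicate block, left 0 calls in either direction for signal and for run length. The deviations of libraries with the same number correlated at 0.94 for reads, -0.02 for signal, -0.17 for run length and 0.37 for loop scores, and nothing in the labels ties the numbers, so they were not taken to pair the libraries. Crossing the numbers for run length, chosen after seeing the data, also gave 0 calls in either direction.

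Some signs reversed. ACTN2 was at 0.17 for signal without quantile normalization, where the median of all caRNAs was 0.60, so it stayed below the median, and at -0.45 for run length with quantile normalization. For the loop score MYO18B was at 0.19 with gene ends alone, 0.069 without quantile normalization and 0.61 with RefSeq positions, and between -0.67 and 0.15 without 1 library, being positive without LW replicate 1. ACTN2 was at 0.18 without quantile normalization, where the median of all genes was 0.44, so that ACTN2 and MYO18B stayed below it, and between -0.34 and 0.12 without 1 library, and PDLIM5 was at -0.35 with gene ends alone.

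Descriptions moved as follows, as means over 4 libraries. Shares of bins instead of signal were 91.2% for ACTN2, 77.6% for PDLIM5 and 93.0% for MYO18B, and the ACTN2 share beyond 50 kb was 39.5%. The distance holding 90% of the signal was 6.57, 0.285 and 5.08 Mb for ACTN2, PDLIM5 and MYO18B. Loops at an FDR of at most 0.001 numbered 14.3, 21.3 and 9.25 and loops at the gene ends alone 7.5, 10.3 and 4.75, in the same order, while RefSeq positions gave 7.5 for MYO18B. The ratio of RNA on partner bins to other bins at 10 to 50 kb, pooled over both sides of the gene and so also moved by any difference between the sides, was 1.43 for ACTN2 and 3.11 for PDLIM5 with loops in both libraries of a breed, and no such partner gave a value for MYO18B in LW. Signal under the lowest listed run peak of an RNA cannot be seen in the lists.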
